A study of Sus scrofa with 2 samples.

Results

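CYP17A1, INSL3, DCN, PDGFRA and PDGFRB are the 5 genes, of the 22342 listed for these libraries, that are commonly used to mark theca and stromal cells around the ovarian follicle. They were taken by symbol from the gene lists, and their UMIs (unique molecular identifiers, each standing for 1 captured mRNA molecule) were counted in every deposited barcode. The somatic cells of 2 antral follicles over 7 mm in diameter, both from 1 pubertal Landrace × Yorkshire pig of 210 days, each made 1 library with 10x Genomics 3′ chemistry. Per the study's methods the pig had received pregnant mare serum gonadotropin (PMSG), so both follicles were stimulated and no unstimulated follicle was at hand. The cells were those flushed out with the fluid of the punctured follicle, and the cumulus cells were freed from the oocyte with hyaluronidase, so theca interna and stroma, which lie outside the basement membrane, were not dissected for these libraries. By RefSeq on Sscrofa11.1, the genes other than INSL3 lie at chr14:113805616-113820445 (CYP17A1), chr5:91678601-91713925 (DCN), chr8:40966568-41021440 (PDGFRA) and chr2:151155753-151192818 (PDGFRB). With 1 library per follicle, there is no replicate of either follicle, and no test between them was made.

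The follicle wall has the granulosa layer inside its basement membrane and the theca outside. In the classical account, theca cells make androgens under luteinizing hormone, and granulosa cells, which lie nearer to the fluid, turn them into estrogens with aromatase (CYP19A1) and secrete inhibin, whose alpha chain is INHA. CYP17A1 is the 17-alpha-hydroxylase/17,20-lyase that makes androgen precursors, and INSL3 is a relaxin-family peptide hormone of theca and Leydig cells. DCN is decorin, a small leucine-rich proteoglycan of collagen fibers, and PDGFRA and PDGFRB are the platelet-derived growth factor receptors of fibroblasts, pericytes and smooth muscle cells.

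Follicle 1 had 14289 barcodes with 125409747 UMIs and follicle 2 had 15548 barcodes with 127414267 UMIs, with medians of 9487 and 6130.5 UMIs per barcode. Barcodes were placed in 3 classes by the genes detected in them: under 2000 genes (4595 and 7397 barcodes, 6.21% and 9.27% of the UMIs), 2000 to 5000 genes (9555 and 7985 barcodes) and over 5000 genes (139 and 166 barcodes). In all, 56 barcode sequences occurred in both libraries. As cells that should lack these genes, 4 and 20 barcodes with immune markers and 12 and 46 red cell barcodes with at least 20% of their UMIs from HBB were set aside for comparison. Levels are given as CPM, counts per 1000000 UMIs of the same barcodes. All intervals are 95% intervals that cover counting error only (exact Poisson for a CPM, exact conditional for a ratio and Clopper-Pearson for a share of barcodes).

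The genes differed in where their UMIs lay. INSL3 was plentiful and CYP17A1 was rare, and the 10 barcodes with most of either had INHA above 5000 CPM in both follicles. Their INHA levels lay on both sides of the median of the middle class of detected genes (19785 and 22256 CPM). Only 2.93% and 8.79% of the barcodes of that class lay under 5000 CPM of INHA. DCN and PDGFRB were sparse, and in follicle 2 their levels were 18.2 (14.0–23.8) and 11.4 (9.71–13.5) times as high in barcodes with INHA under 5000 CPM as in the others. These barcodes held 58.3% of the DCN UMIs and 46.7% of the PDGFRB UMIs of that follicle, so a large part of both lay in barcodes with more INHA. PDGFRA was nearly absent. No barcode held UMIs of 4 or 5 of the genes, but all except INSL3 were in at most 3.31% of barcodes, so this says little. In follicle 2, INSL3 was low and DCN and PDGFRB were high in barcodes with little INHA. Under their common label as theca and stromal markers, the genes thus did not share 1 pattern there.

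**Figure D1:**
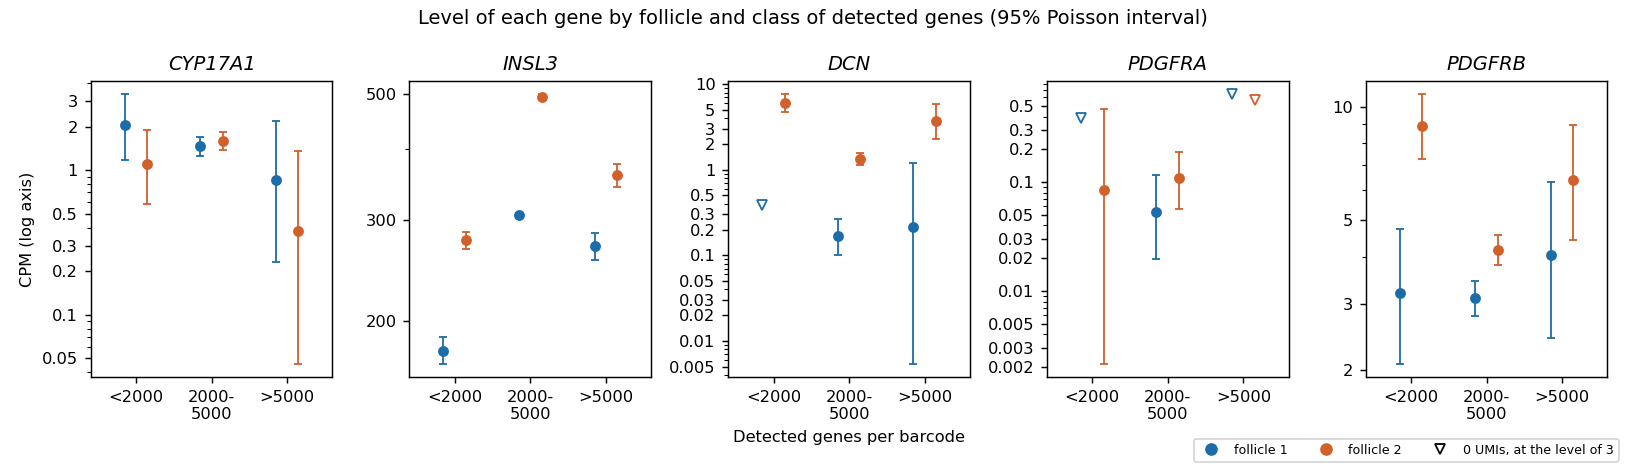
Level of each gene (CPM, log axes with their own ranges) in barcodes under 2000, of 2000 to 5000 and over 5000 detected genes, for follicle 1 (blue) and follicle 2 (orange); bars are 95% Poisson intervals and open triangles mark a count of 0, drawn at the level that 3 UMIs would give. INSL3 was lowest under 2000 genes in both follicles, whereas DCN and PDGFRB were highest there in follicle 2.

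CYP17A1 had 185 UMIs in 125 barcodes of follicle 1 and 191 UMIs in 136 barcodes of follicle 2. Its level was 1.48 CPM (1.27–1.70) in follicle 1 and 1.50 CPM (1.29–1.73) in follicle 2. The ratio of follicle 2 to follicle 1 was 1.02 (0.826–1.25), and its interval includes 1. By class of detected genes, from fewest to most, the level was 2.06, 1.46 and 0.850 CPM in follicle 1 and 1.10, 1.60 and 0.376 CPM in follicle 2, the last from 4 and 2 UMIs. Between the class under 2000 genes and that of 2000 to 5000 genes, the ratio was 1.41 (0.786–2.35) in follicle 1 and 0.690 (0.360–1.21) in follicle 2, and both intervals include 1.

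The share of barcodes with a CYP17A1 UMI was 0.875% in each follicle, and 0.267% and 0.247% after each barcode was thinned to 2000 UMIs. None of the 24 immune barcodes (median depths of 18452.5 and 4663.5 UMIs) or the 58 red cell barcodes (1811.5 and 3602 UMIs) had one. With so few immune barcodes, however, a count of 0 allows up to 27.0 CPM in follicle 1 and 26.0 CPM in follicle 2, far above the level in all barcodes. Single UMIs made up 54.1% of the CYP17A1 UMIs in follicle 1 and 57.1% in follicle 2. Only 4 barcodes in each follicle held 5 or more. The highest count in 1 barcode was 18 UMIs in follicle 1 and 11 in follicle 2, and the 10 barcodes with most held 29.2% and 25.1% of all CYP17A1 UMIs.

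In each follicle, the 10 barcodes with most CYP17A1 all had CYP11A1 UMIs and INHA above 5000 CPM. CYP11A1 was in 90.8% and 84.8% of all barcodes, however. INHA was under 5000 CPM in only 2.93% and 8.79% of barcodes with 2000 to 5000 genes, so neither sets these 10 apart. The barcode of follicle 1 with 18 CYP17A1 UMIs also had 38 UMIs of INSL3, 81 of STAR, which carries cholesterol into the mitochondrion, 200 of CYP11A1, which makes pregnenolone from it, and 160 of INHA among 29294 UMIs. Its INHA level of 5462 CPM was the lowest among the 10 barcodes with most CYP17A1, whose median INHA level was 24341 CPM. The barcode of follicle 2 with 11 CYP17A1 UMIs had 109 of INSL3 and 663 of INHA among 19361 UMIs. Over the 10 barcodes with most CYP17A1, COL1A1, COL1A2 and COL3A1 had 0 UMIs in follicle 1 and 1 UMI in follicle 2. Each of these collagens was in at most 0.532% and 1.73% of all barcodes, so 10 barcodes are too few to show a lack of them. Of the barcodes with 2000 to 5000 genes, those with a CYP17A1 UMI (106 and 122) had CYP11A1 at 1.46 (1.41–1.50) and 1.34 (1.30–1.38) times the level of the others. CYB5A, the cofactor of the lyase step, had ratios of 1.32 (1.24–1.42) and 1.27 (1.20–1.33). STAR had ratios of 3.40 (3.05–3.77) and 1.94 (1.69–2.22), but 81 of its 364 UMIs in follicle 1 came from the barcode already named. FBLN1 of the fibroblast list was lower in the barcodes with a CYP17A1 UMI, at 0.629 (0.437–0.876) and 0.507 (0.339–0.729) times the others. It was in 20.3% and 17.2% of all barcodes, so it did not set stroma apart here. LHCGR, the receptor for luteinizing hormone, had ratios of 1.21 (0.691–1.98) and 1.12 (0.715–1.68), and both intervals include 1.

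The clearest partner of CYP17A1 was CYP19A1. Barcodes with a CYP17A1 UMI had CYP19A1 at 3.09 (2.50–3.77) times the level of the others in follicle 1 and 3.65 (3.16–4.19) times in follicle 2. A split of the barcodes by CYP19A1 was chosen after these values were seen. It shows the same association in the same barcodes from the other side and is no separate support. In follicle 1 the level of CYP17A1 was 1.09 CPM in 8004 barcodes without a CYP19A1 UMI, 2.33 CPM in 1330 barcodes with 1 or 2 and 7.41 CPM (4.75–11.0) in 221 barcodes with 3 or more. In follicle 2 it was 0.894 CPM in 6203 barcodes, 2.50 CPM in 1412 and 8.18 CPM (6.03–10.8) in 370. The barcodes with 3 or more CYP19A1 UMIs thus had 6.79 (4.16–10.7) and 9.16 (6.23–13.3) times the CYP17A1 level of those with none. Their 24 and 48 CYP17A1 UMIs lay in 13 and 24 barcodes, with up to 6 and 11 in 1 barcode. After thinning to 2000 UMIs, 1.42% against 0.166% of barcodes in follicle 1 and 1.34% against 0.160% in follicle 2 kept a CYP17A1 UMI.

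**Figure D2:**
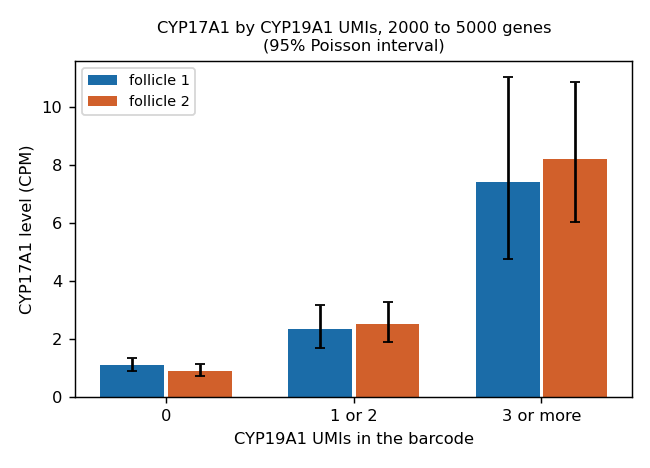
CYP17A1 level (CPM, bars from 0, with 95% Poisson intervals) in barcodes of 2000 to 5000 genes grouped by their CYP19A1 UMIs, follicle 1 in blue and follicle 2 in orange. The level was 7.41 and 8.18 CPM with 3 or more CYP19A1 UMIs and 1.09 and 0.894 CPM with none.

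Among the barcodes with 2000 to 5000 genes, CYP17A1 was low where the matrix gene VCAN was high, and in follicle 1 also where TOP2A was found. The 25% of barcodes richest in VCAN, the matrix proteoglycan versican, had 0.256 CPM in follicle 1 and 0.449 CPM in follicle 2, which were 0.139 (0.0548–0.292) and 0.229 (0.116–0.410) times the rest of the class. No CYP17A1 UMI was seen in 417 and 115 barcodes with at least 2 UMIs of TOP2A, a topoisomerase of dividing cells, which allows up to 0.544 and 1.69 CPM. In follicle 1 this limit lies below the 1.97 CPM of the barcodes in no marker-defined state, whereas in follicle 2 (2.25 CPM) it is nearer. The interval of the ratio to the rest of the class runs up to 0.354 in follicle 1. In follicle 2 it runs up to 1.05 and includes 1. By correlation over the barcodes of this class (9555 and 7985, which share library and depth), the 5 genes most like CYP17A1 were CYP19A1 (r = 0.08 and 0.11), MGARP, GLDN, CYP11A1 and RPS6KA3. All of these correlations were weak.

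INSL3 had 37219 UMIs in 5263 barcodes of follicle 1 and 59656 UMIs in 5825 barcodes of follicle 2. The level was 297 CPM (294–299.8) in follicle 1 and 468 CPM (464–472) in follicle 2, a ratio of 1.58 (1.56–1.60), which is short of the 2-fold limit used for calls. The difference was seen in every class, with ratios of 1.56 (1.46–1.66) under 2000 genes, 1.61 (1.59–1.64) from 2000 to 5000 and 1.33 (1.24–1.43) over 5000. The level under 2000 genes was 0.579 (0.549–0.612) of that from 2000 to 5000 genes in follicle 1 and 0.560 (0.541–0.580) in follicle 2.

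The INSL3 gene lies on the plus strand of chromosome 2, at chr2:59929591-59931220 of Sscrofa11.1 by RefSeq, with JAK3 upstream of it. Of the 5 genes it had by far the most UMIs, so the 250 bases before its start, chr2:59929341-59929590, are shown. They were searched on both strands for AGGTCA, which is part of the longer site that the orphan receptors NR5A1 and NR5A2 of steroid-making cells bind. The longer site was not searched for. The single match, TGACCT, is in capitals and spans bases 114 to 109 before the start.
INSL3 upstream: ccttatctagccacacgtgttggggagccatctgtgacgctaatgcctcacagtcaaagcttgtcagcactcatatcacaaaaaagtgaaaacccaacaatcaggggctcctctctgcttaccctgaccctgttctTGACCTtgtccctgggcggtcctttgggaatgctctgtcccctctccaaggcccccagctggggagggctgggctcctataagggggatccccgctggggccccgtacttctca
The same letters occurred in 2540 of 20664 such windows (12.3%), so a match is common. NR5A1 was at 11.5 and 10.3 CPM in the 2 follicles, and NR5A2 at 567 and 471 CPM.

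INSL3 was neither evenly spread nor held by a few barcodes. A UMI was found in 36.8% of the barcodes of follicle 1 and 37.5% of those of follicle 2, and thinned to 2000 UMIs in 21.3% and 26.1%. Counts of 5 or more were found in 1640 and 2018 barcodes, and of 100 or more in 14 and 76, up to 208 UMIs in follicle 1 and 265 in follicle 2. Among barcodes of 2000 to 5000 genes the median barcode had 0 CPM in follicle 1 and 58.3 CPM in follicle 2, and the 90th percentile was 803 and 1272 CPM. The highest 10% of these barcodes held 75.1% and 74.3% of the INSL3 UMIs of the class. The Fano factor, the variance of the UMIs per barcode over their mean, was 31.9 in follicle 1 and 52.0 in follicle 2.

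By a Fano factor of 2 or more, 2 of the 4 genes with at least 20 UMIs were called in follicle 1 (CYP17A1 and INSL3), where DCN reached 20 UMIs exactly, and 3 of 4 in follicle 2 (with DCN). The background was 14.5% of 12580 genes in follicle 1 and 17.1% of 12667 in follicle 2. CYP17A1 had Fano factors of 3.46 and 2.49, DCN of 1.10 and 3.48, and PDGFRB of 1.17 and 1.35.

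**Figure D3:**
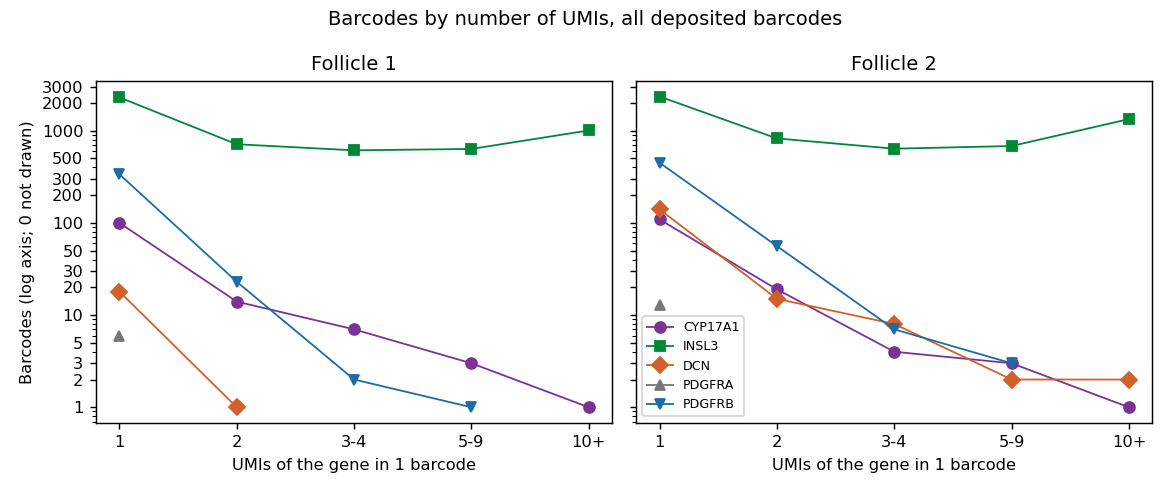
Number of barcodes (log axis, 0 not drawn) with 1, 2, 3 or 4, 5 to 9 and 10 or more UMIs of each gene, in follicle 1 (left) and follicle 2 (right). INSL3 reached 10 or more UMIs in 1006 and 1336 barcodes, whereas the other genes were mostly seen as single UMIs.

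Immune and red cell barcodes held little INSL3, apart from 1 barcode. It was found in 2 of 4 immune barcodes of follicle 1, with 1 UMI each (14.6 CPM), and in 1 of 12 red cell barcodes (35.5 CPM). In follicle 2, 6 of 46 red cell barcodes had it, at 50.2 CPM. The 20 immune barcodes of follicle 2 had 67 INSL3 UMIs in 4 of them (473 CPM), but 64 of these UMIs came from 1 barcode, and INHA was at 7052 CPM over the 20. Removing all immune and red cell barcodes left the INSL3 level within its interval in both follicles.

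INSL3 went with INHA. The 10 barcodes with most INSL3 had INHA at 18464 to 34729 CPM in follicle 1 and 15558 to 38393 CPM in follicle 2. They had no UMI of COL1A1, COL1A2 or COL3A1, but each of these was in at most 0.532% and 1.73% of all barcodes. When the barcodes of 2000 to 5000 genes were ordered by INHA, a split chosen after the values were seen, the INSL3 level in sets of 25% from the lowest to the highest was 141, 306, 369 and 403 CPM in follicle 1. In follicle 2 it was 274, 490, 497 and 680 CPM. INHA was also the gene whose correlation with INSL3 was highest (r = 0.17 and 0.21), followed by ATP5F1C, MAP1LC3A, STRIP2 and LRP4. Barcodes with at least 3 CYP19A1 UMIs had INSL3 at 410 and 764 CPM, against 291 and 444 CPM in those with none.

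INSL3 also varied with the state of the cells. It was low in the TOP2A barcodes, at 63.6 CPM in follicle 1 and 166 CPM in follicle 2, which were 0.198 (0.179–0.217) and 0.331 (0.298–0.367) times the rest of the class. The 25% richest in VCAN had 156 and 371 CPM. The 25% richest in AREG, the EGF-family ligand amphiregulin induced by luteinizing hormone, had 410 and 523 CPM, or 1.52 (1.49–1.55) and 1.08 (1.06–1.10) times the rest. These states were set by marker genes and can share barcodes. In follicle 2, a state with CEMIP, a hyaluronan-degrading protein, and CCDC80, a matrix protein, comprised 211 barcodes with 77.6 CPM of INSL3. No barcode of follicle 1 met that rule. The INSL3 level was also lower where the mitochondrial share of UMIs was higher, with 359 CPM under 0.5% and 242 CPM at 7% or more in follicle 1 and 666 and 298 CPM in follicle 2. Its part in the differences above was not tested.

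**Figure D4:**
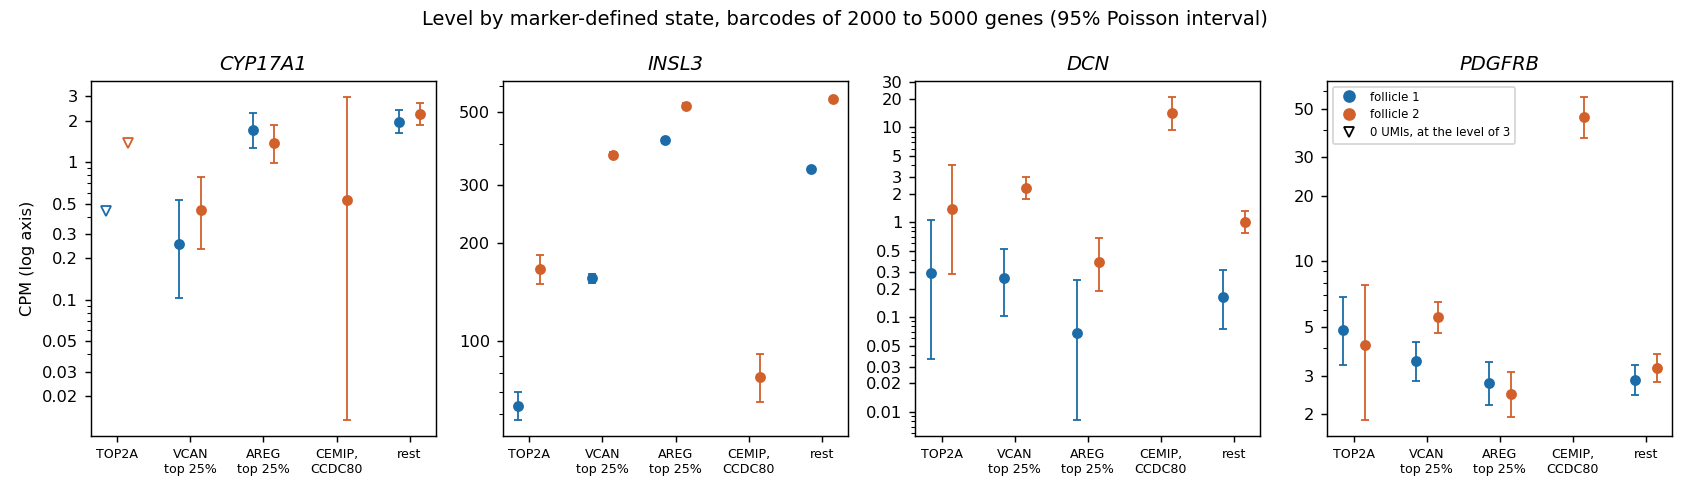
Levels of CYP17A1, INSL3, DCN and PDGFRB (CPM, log axes with their own ranges, 95% Poisson intervals) in barcodes of 2000 to 5000 genes with TOP2A, in the highest 25% by VCAN and by AREG, with CEMIP and CCDC80, and in none of these, follicle 1 in blue and follicle 2 in orange; open triangles mark 0 UMIs. The CEMIP and CCDC80 barcodes, found in follicle 2 alone, had the highest DCN (14.4 CPM) and PDGFRB (45.7 CPM) and little INSL3 (77.6 CPM).

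DCN was the gene that differed most between the follicles. Follicle 1 had 20 UMIs in 19 barcodes (0.159 CPM, 0.0974–0.246), and follicle 2 had 240 UMIs in 167 barcodes (1.88 CPM, 1.65–2.14). The ratio was 11.8 (7.48–19.7), and 12.2 (7.54–21.0) without the barcode with most DCN in each follicle. DCN was the only 1 of the 4 genes with at least 20 UMIs that was 2-fold or more higher in follicle 2, a limit passed by 3.23% of 13391 genes in that direction and by 3.38% in the other. DCN was seen in 0.133% and 1.07% of barcodes, and after thinning in 0.0312% and 0.414%. No immune or red cell barcode had a DCN UMI. As the mean of single-barcode CPM, which gives shallow barcodes equal weight, the log2 ratio of follicle 2 to follicle 1 was 5.39 in place of 3.56.

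In follicle 2, DCN was higher in barcodes with few detected genes. The level there was 6.01 CPM under 2000 genes, 1.35 CPM from 2000 to 5000 and 3.76 CPM over 5000. The last rests on 20 UMIs, 17 of them in 1 barcode. The first was 4.45 (3.31–5.94) times the second, and 29.6% of the DCN UMIs lay in barcodes under 2000 genes, which had 9.27% of all UMIs. In follicle 1 no DCN UMI was found under 2000 genes, where 3 UMIs would give 0.385 CPM. The level in follicle 2 was 15.6 times this value, and the exact interval of the ratio between the follicles starts at 12.4. Between 2000 and 5000 genes the ratio of follicle 2 to follicle 1 was 8.03 (4.96–13.7). By a level 2-fold or more higher under 2000 genes than from 2000 to 5000, 0 of 4 genes were called in follicle 1 and 2 of 4 (DCN and PDGFRB) in follicle 2, where the background was 3.97% and 6.84% of genes.

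The barcodes of follicle 2 with most DCN were poor in INHA, but most DCN barcodes were not. Of the 167 barcodes with a DCN UMI, 92 had INHA at 5000 CPM or more, and these held 41.7% of the DCN UMIs. The 10 barcodes with most DCN, with 3 to 17 UMIs each, had INHA at 1350 to 10870 CPM (median 1751), and 8 of them had a UMI of CEMIP or CCDC80. In follicle 1 the corresponding median was 20054 CPM, at 1 or 2 DCN UMIs per barcode, with 18 barcodes tied at 1 UMI. Between 2000 and 5000 genes, the 104 DCN barcodes of follicle 2 had LUM, the collagen-binding proteoglycan lumican, at 10.4 (4.59–20.8) times the level of the others, COL1A2 at 4.26 (1.81–8.60), COL3A1 at 7.04 (2.50–16.0) and FBLN1 at 3.17 (2.60–3.82). The smooth muscle genes MYH11 and TAGLN were at 6.26 (4.44–8.60) and 6.15 (5.07–7.40) times the others, but ACTA2 had a single UMI there, at 0.226 (0.00570–1.26) times the others. The collagen and LUM ratios rest on 6 to 9 UMIs each. The genes most like DCN by correlation were SEMA5A (r = 0.07 and 0.09), IER5L, CRYM, NFATC4 and CORO1A, all weakly.

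PDGFRA, the receptor typical of fibroblasts, had 6 UMIs in follicle 1 and 13 in follicle 2, each in a barcode of its own (0.0478 and 0.102 CPM). The ratio was 2.13 (0.756–6.84), whose interval includes 1. With 19 UMIs in all, PDGFRA was below the minimum of 20 for the background counts. In follicle 2, 5 of its 12 UMIs between 2000 and 5000 genes lay in barcodes with INHA under 5000 CPM, which made up 8.79% of these barcodes, and in follicle 1 none of 6 did. CORO2B, FRZB, TOM1L1, IFITM3 and ITGA4 were most like it by correlation, but with 6 and 12 barcodes that order has little behind it.

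PDGFRB, the receptor typical of pericytes and smooth muscle, had 394 UMIs in 363 barcodes of follicle 1 and 599 UMIs in 515 barcodes of follicle 2. The level was 3.14 CPM (2.84–3.47) and 4.70 CPM (4.33–5.09), with a ratio of 1.50 (1.32–1.70), or 1.25 in place of 0.58 on the log2 scale as the mean of single-barcode CPM. Its UMIs were thinly spread, since 85.5% and 75% of them were single in their barcode and the highest counts were 5 and 6. A UMI was found in 2.54% and 3.31% of barcodes and, thinned, in 0.611% and 1.27%, beside 0 of 4 and 1 of 20 immune barcodes. In follicle 1 the level was nearly flat over the classes, at 3.21, 3.10 and 4.04 CPM, with a ratio of 1.04 (0.661–1.56) between the first and the second. In follicle 2 it was 8.89, 4.17 and 6.40 CPM, with a ratio of 2.13 (1.71–2.64).

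Where PDGFRB lay differed between the follicles. The 10 barcodes with most PDGFRB had a median INHA level of 20003 CPM in follicle 1, and none had CEMIP or CCDC80. Part of these 10 were taken from 23 barcodes tied at 2 UMIs. CEMIP or CCDC80 was in only 103 of the 14289 barcodes of follicle 1, so its absence from 10 says little. In follicle 2 the INHA level of the 10 barcodes with most PDGFRB was 883 to 2505 CPM (median 1398), and all 10 had CEMIP or CCDC80. Between 2000 and 5000 genes, the 394 PDGFRB barcodes of follicle 2 had MYH11, the smooth muscle myosin, at 6.59 (5.43–7.95) times the level of the others, TAGLN at 5.37 (4.78–6.02), ACTA2 at 2.81 (2.01–3.85), LUM at 6.23 (3.53–10.5) and FBLN1 at 3.08 (2.77–3.42). INHA was at 0.736 (0.731–0.741) of the others. In follicle 1 the 322 PDGFRB barcodes had no MYH11 UMI and INHA at 0.920 (0.913–0.926). MYH11 was in only 0.238% of all barcodes of follicle 1, so its absence from 322 says little. By correlation, ST3GAL1 (r = 0.06 and 0.13), PHLDA2, OLFML2A (0.04 and 0.22), PMP22 and ANGPTL4 were most like PDGFRB.

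To set these patterns side by side, the barcodes of 2000 to 5000 genes were split at 5000 CPM of INHA, a limit chosen after the values were seen and far below the class medians of 19785 and 22256 CPM. Under it lay 280 barcodes (2.93%) of follicle 1 and 702 (8.79%) of follicle 2. Of the latter, 557 had a UMI of CEMIP or CCDC80 and 7 met the immune rule, and of the former 2 and none. INSL3 was low in both sets, at 26.3 against 315 CPM in follicle 1 (ratio 0.0836, 0.0673–0.103) and 31.7 against 516 CPM in follicle 2 (0.0615, 0.0523–0.0718). Its level there was near that in the red cell barcodes given above, which rests on 1 and 9 UMIs. CYP17A1 had no UMI in the 280 barcodes, which allows up to 1.07 CPM, and 2 UMIs in the 702.

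DCN and PDGFRB did the opposite in follicle 2. DCN was at 17.6 CPM in the barcodes with little INHA and 0.579 CPM in the others, a ratio of 30.3 (21.6–42.7), and these 8.79% of barcodes held 59.1% of the DCN UMIs of the class. PDGFRB was at 39.3 against 2.50 CPM, a ratio of 15.7 (13–19.0), with 42.8% of its UMIs. In follicle 1, DCN had no UMI in the 280 barcodes, which again allows up to 1.07 CPM. PDGFRB was at 4.92 against 3.04 CPM there, a ratio of 1.62 (0.930–2.63) whose interval includes 1. The barcodes with little INHA therefore differed between the follicles. DCN in those of follicle 2 was 20.2 times the level that 3 UMIs would give in follicle 1, with an exact interval of the ratio that starts at 16.1. PDGFRB was 8.0 (4.87–14.0) times as high in follicle 2, whereas the INSL3 ratio was 1.21 (0.926–1.58).

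Under 2000 genes, where DCN of follicle 2 was highest, the contrast was much smaller. DCN was at 8.99 CPM in the 2096 barcodes with INHA under 5000 CPM and 4.67 CPM in the other 5301, a ratio of 1.93 (1.17–3.15), and the latter held 53.5% of the DCN UMIs of the class. Barcodes without CEMIP or CCDC80 held 74.6% of them, and the ratio of those with to those without was 1.94 (1.07–3.36). From 2000 to 5000 genes that ratio was 9.38 (6.67–13.3). PDGFRB kept more of its contrast under 2000 genes, at 18.0 against 4.79 CPM by INHA (ratio 3.75, 2.49–5.73) and 34.6 against 4.38 CPM by CEMIP or CCDC80 (7.91, 5.28–11.9). The barcodes of this class are shallow, with medians of 1379 and 1105 UMIs on either side of the INHA limit, so that their INHA level is itself less precise.

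**Figure D5:**
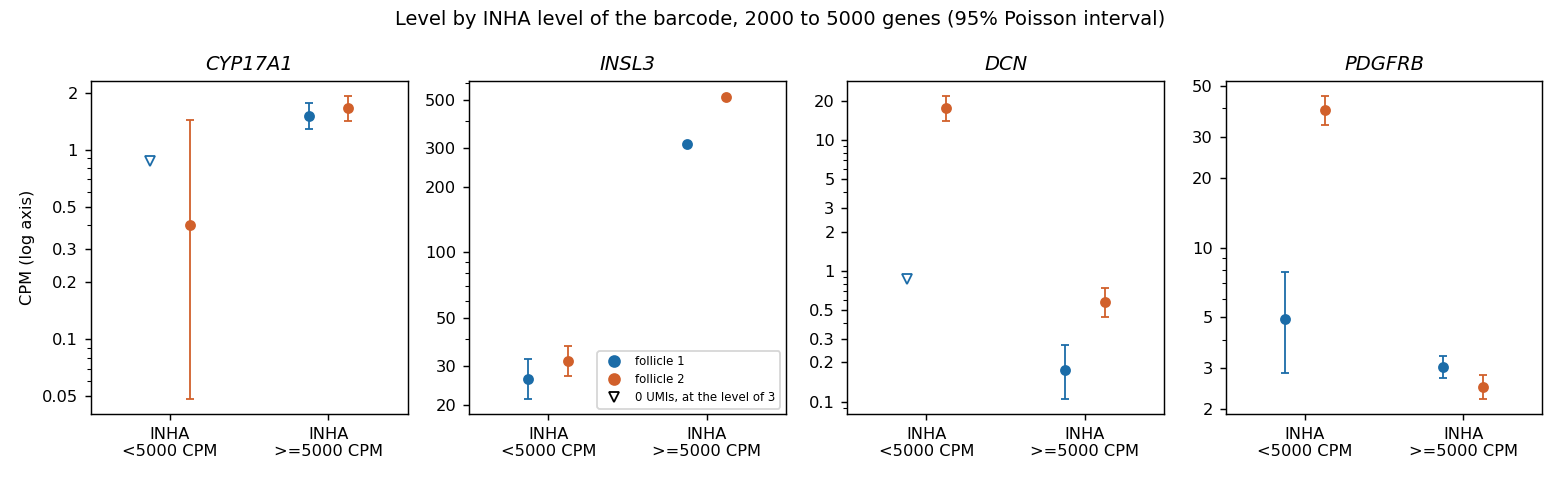
Levels of CYP17A1, INSL3, DCN and PDGFRB (CPM, log axes with their own ranges, 95% Poisson intervals) in barcodes of 2000 to 5000 genes with INHA under 5000 CPM and at 5000 CPM or more, follicle 1 in blue and follicle 2 in orange; open triangles mark 0 UMIs, drawn at the level of 3. INSL3 was 26.3 and 31.7 CPM in the barcodes with little INHA, where DCN (17.6 CPM) and PDGFRB (39.3 CPM) of follicle 2 were highest.

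The difference between the follicles changed when the barcodes of 2000 to 5000 genes were further kept to those with INHA at 5000 CPM or more. The DCN ratio of follicle 2 to follicle 1 was 11.8 over all barcodes, 8.03 in the class and 3.34 (1.97–5.92) in its barcodes rich in INHA. The PDGFRB ratio was 1.50 over all barcodes, 1.35 (1.17–1.55) in the class and 0.821 (0.696–0.968) in its barcodes rich in INHA, which turns its direction. The INSL3 ratio was 1.64 (1.62–1.66) and the CYP17A1 ratio 1.10 (0.881–1.37), both close to those over all barcodes. In these data, more cells with DCN or PDGFRB and more of their RNA per cell cannot be told apart over all barcodes.

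Other genes of the barcodes with little INHA also differed between the follicles. In follicle 2, MYH11 was at 91.7 (74.7–113) times the level of the other barcodes, ACTA2 at 66.4 (52.5–84.6), LUM at 68.3 (40.8–119), TAGLN at 24.2 (22.0–26.5), FBLN1 at 10.3 (9.53–11) and COL1A1 at 7.83 (5.41–11.2). COL3A1, a fibrillar collagen of stroma, had a ratio of 2.30 (0.958–4.78), whose interval includes 1. The immune genes PTPRC and TYROBP were also higher, at 126 (43.3–500) and 27.2 (18.0–41.3) times the others, and 7 of these barcodes met the immune rule. HBB was lower, at 0.303 (0.236–0.383). The other granulosa genes did not move together. FSHR, the receptor for follicle-stimulating hormone, was at 75.5 (55.3–105) times the others, FST, the activin-binding follistatin, at 2.65 (2.52–2.78), the gap junction gene GJA1 at 1.97 (1.92–2.02) and INHBA, a beta chain of inhibin and activin, at 1.16 (1.12–1.20). NR5A2 was lower, at 0.401 (0.376–0.427), CYP19A1 had a ratio of 0.979 (0.828–1.15), whose interval includes 1, and AMH had 1 UMI. CYP11A1 of the androgen synthesis list was at 1.17 (1.15–1.20). In follicle 1, FSHR was at 11.7 (8.40–16.1), INHBA at 4.57 (4.51–4.63) and CYP19A1 at 0.431 (0.298–0.604). VCAN was at 4.29 (4.24–4.35) and FBLN1 at 3.50 (3.15–3.87), while TAGLN was at 0.963 (0.607–1.46) and COL1A1 had no UMI.

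Few barcodes expressed the genes together. With 2 or more UMIs of each gene required, 19 barcodes of follicle 1 (0.133%) and 24 of follicle 2 (0.154%) held at least 2 of the genes. Of these, 11 and 12 held CYP17A1 with INSL3, 8 and 8 held INSL3 with PDGFRB, 0 and 3 held DCN with PDGFRB, and 0 and 1 held INSL3 with DCN. Thus INSL3 took part in all 19 and in 21 of the 24. It had 5 or more UMIs in 1640 and 2018 barcodes, against at most 4 barcodes for any other of the genes. Its abundance alone puts it in most such pairs, and no expected number was computed. By class, 1, 16 and 2 of these barcodes lay under 2000, from 2000 to 5000 and over 5000 genes in follicle 1, and 1, 23 and 0 in follicle 2. With any UMI counted, 8768 and 9247 barcodes held none of the genes, 5270 and 5959 held 1, 247 and 329 held 2 and 4 and 13 held 3.

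Pairs of genes gave a similar split in follicle 2. Among barcodes of 2000 to 5000 genes, INSL3 was found in 50% (40.1–59.9) of CYP17A1 barcodes against 46.1% of the others in follicle 1, and in 60.7% (51.4–69.4) against 53.6% in follicle 2. The INSL3 level was 277 against 307 CPM in follicle 1, a ratio of 0.905 (0.819–0.998). In follicle 2 it was 786 against 489 CPM, a ratio of 1.61 (1.53–1.69). These intervals cover counting error only, and INSL3 varied far more than that between barcodes (Fano factors of 31.9 and 51.6 in this class). In follicle 1 the shares also went against the levels, so no direction was read for this pair there. In follicle 2, PDGFRB was found in 20.2% (13–29.2) of the 104 DCN barcodes and 4.73% of the others, at 22.6 against 3.96 CPM (ratio 5.70, 3.74–8.36), although the DCN barcodes were shallower. Barcodes with INSL3 had less DCN (0.325, 0.224–0.464) and less PDGFRB (0.489, 0.404–0.591) in follicle 2, while in follicle 1 the PDGFRB ratio was 1.09 (0.876–1.35). No barcode of this class held CYP17A1 with DCN, among 106 and 122 CYP17A1 barcodes. The interval of the DCN ratio between these and the others runs up to 16.2 in follicle 1 and 1.41 in follicle 2. Both intervals include 1, so no order was read from this. Doublets and free RNA in the droplets were not removed, and their part in these pairs was not tested.

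Genes of the same pathways and of other cell types were compared between the follicles by a 2-fold limit. For androgen synthesis and the response to luteinizing hormone, 0 of 6 genes passed in either direction (median log2 ratio of follicle 2 to follicle 1, −0.08), against a median of 0.0032 over all genes. Of the INSL3-family receptors, RXFP1 had 0 and 1 UMIs and RXFP2 3 and 1. For the hedgehog pathway, by which granulosa cells signal to theca, 0 of 3 passed (0.18), with 0 and 2 UMIs of the target gene GLI1. Of the other small leucine-rich proteoglycans, 1 of 5 was higher (0.48), namely LUM with a ratio of 17.2 (8.08–43.6). For the PDGF ligands, 0 of 4 passed (0.11).

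Both stromal lists held genes past the limit, which 3.23% of all tested genes passed upward and 3.38% downward. For fibroblasts, 4 of 9 genes were higher and none lower by this limit (0.59): COL1A1 with a ratio of 9.27 (6.39–13.9), COL1A2 with 3.50 (2.76–4.47), COL3A1 with 13 (7.21–25.6) and LUM. Short of the limit, OGN was higher at 1.50 (1.11–2.04). TCF21 was lower at 0.610 (0.493–0.751), NR2F2 at 0.779 (0.755–0.804) and FBLN1 at 0.849 (0.814–0.885). COL6A3 had 0.674 (0.43–1.04), whose interval includes 1. Summed, the fibroblast list was at 113 CPM in follicle 1 and 96.6 CPM in follicle 2. For pericytes and smooth muscle, 4 of 8 were higher, ACTA2 with 27.9 (18.5–44.4), MYH11 with 12.8 (9.92–16.8), DES with 6.89 (2.06–36.1) and TAGLN with 3.05 (2.83–3.30), and 2 were lower, CNN1 and CSPG4 (0.95). RGS5, a pericyte marker of this list, was in 79.8% and 64.2% of barcodes, so it did not set a cell type apart here. Among endothelial genes 1 of 5 was higher and 1 lower (0.40), among immune genes 2 of 8 were higher (0.20), and of the 3 red cell genes all were higher (2.82). Of the granulosa genes 0 of 7 were higher and 1 lower (0.08), and for surface epithelium and oocytes 0 of 1 passed in each list (0.60 and 0.04).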

How the data were processed

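Somatic cells of 2 porcine antral follicles were measured, with 1 library each. The authors made the deposited counts of UMIs per gene and barcode using CellRanger 6.0.2 and the Sscrofa11.1 genome, with an annotation release not given in the sources used here. The counts had not been normalized. Both matrices start at 500 UMIs per barcode, so barcodes had been selected before deposit; the study's methods name filtering by CellRanger, with settings not given in the sources used here. All 29837 deposited barcodes were used and doublets were not removed. Depth ranged from 500 to 95248 UMIs per barcode, so a gene with few UMIs is limited by counting error.

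Rows were matched by symbol. Where the gene list repeats the Ensembl identifier, the symbol came from a RefSeq reference table of Sscrofa11.1 (MYH11, NR5A2 and LHCGR). UMIs were summed over barcodes and divided by their total (CPM). Thinning to 2000 UMIs used the hypergeometric expectation over deeper barcodes, which left out 3343 and 5587 barcodes. Immune barcodes had at least 10 UMIs over at least 3 of 8 immune markers. Doublet callers, clustering and models were not used. Genes most like each member were the 5 with the highest smaller Pearson correlation of log1p(UMIs per 10000) in the 2 follicles, among genes in at least 50 barcodes of each. Background counts used genes with at least 20 UMIs, in the follicle or over both. The genes and lists were chosen with earlier results of these data known, and the lists were those of androgen synthesis, INSL3-family receptors, hedgehog, small leucine-rich proteoglycans, PDGF ligands, fibroblast, pericyte, endothelial, immune, red cell, granulosa, surface epithelium and oocyte genes. Alternatives were a mitochondrial limit of 7%, the study's limits, other class bounds, other totals, the mean of single barcodes, and leaving out immune and red cell or shared barcodes. Splits by INHA, CYP19A1, mitochondrial share and CEMIP or CCDC80 were added after the values were seen.

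Sums and ratios were tested on simulated data. Analyses used Python 3.11.15, numpy 2.4.6, scipy 1.17.1, pandas 2.3.3 and matplotlib 3.10.9.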

Additional observations from a re-analysis of the deposited data

How the results depend on the processing

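No paired analysis was possible because each follicle is 1 library and no test was made. Of 191 values under the alternatives, 136 stayed within the counting interval of the value reported, 53 moved and 2 reversed. Leaving out immune and red cell barcodes, or barcodes found in both libraries, moved none of 33 values each.

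2 settings chosen after the data were seen turned the PDGFRB difference: log2 of follicle 2 to follicle 1 was 0.58 over all barcodes, −0.28 in barcodes of 2000 to 5000 genes with INHA at 5000 CPM or more and −0.31 in those without CEMIP or CCDC80. In the same sets the log2 ratio of DCN was 1.74 and 1.85 in place of 3.56, and that of INSL3 0.71 and 0.73 in place of 0.66. The limit of 2000 to 5000 genes alone gave ratios of 8.03 for DCN and 1.35 for PDGFRB. With the mean of single-barcode CPM, which gives shallow barcodes equal weight, the log2 ratios were 0.46 for INSL3, 1.25 for PDGFRB and 5.39 for DCN, and the levels were 258 and 355 CPM for INSL3 and, in follicle 2, 5.04 CPM for DCN and 6.95 CPM for PDGFRB.

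With the study's limits of 2000 to 5000 genes and under 7% mitochondrial UMIs, INSL3 was at 307 and 496 CPM (log2 ratio 0.69) with 4.55% and 3.85% of its UMIs in the top 10 barcodes, and in follicle 2 DCN was at 1.34 CPM and PDGFRB at 4.17 CPM. With the mitochondrial limit alone, INSL3 was at 302 and 474 CPM, and 2.62% and 5.07% of its UMIs, and 3.52% of those of PDGFRB in follicle 1, lay under 2000 genes. Without mitochondrial and ribosomal protein genes in the totals, INSL3 was at 332 and 529 CPM and PDGFRB at 3.52 and 5.31 CPM. With class bounds of 1500 and 4000 genes, the share of UMIs in the lowest class was 2.65% and 3.93% for INSL3, 3.55% and 10.4% for PDGFRB, 4.86% for CYP17A1 in follicle 1 and 22.9% for DCN in follicle 2.

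In the 1% of barcodes with most of a gene lay 100% and 100% of CYP17A1 UMIs, 100% and 95% of DCN, 27.0% and 29.0% of INSL3 and 44.2% and 39.9% of PDGFRB. When 3 or more genes with any UMI were required, 4 and 13 barcodes co-expressed them. Thinning moved all shares of barcodes with a UMI, to 0.267% and 0.247% for CYP17A1, 21.3% and 26.1% for INSL3, 0.0312% and 0.414% for DCN, 0.00918% and 0.0241% for PDGFRA and 0.611% and 1.27% for PDGFRB.

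The follicles come from 1 animal, so no difference between them can be assigned to follicles in general. The depth limits PDGFRA throughout, DCN in follicle 1 and CYP17A1 outside the class of 2000 to 5000 genes.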
